A study of Canis lupus familiaris with 12 samples.

Results

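The selectins and the endothelial and leukocyte molecules that bind or accompany them were followed in the hippocampus of beagles after rapid atrial pacing or a sham operation. The 9 genes are SELE, SELP, SELPLG, ICAM1, ICAM2, VCAM1, CD34, ITGB2 and ITGA4, taken by symbol from a table of 31158 gene models, and all 9 were found. SELE and SELPLG were put on the list because they shifted in opposite directions in these same libraries, so their differences between arms are described here and not tested. The other 7 were chosen by name.

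Messenger RNA was sequenced from hippocampus of beagles paced in the atria at a high rate for 2 weeks, a way to induce atrial fibrillation, and of beagles given a sham operation. There were 3 libraries per arm. The study set out to relate atrial fibrillation to cognitive impairment and also profiled microRNA in exosomes of left atrial epicardial fat. The labels give no age, and they do not say whether each library came from a separate dog, so the spread between libraries may be partly technical. Sham surgery is itself an operation, and no unoperated dogs were analysed here.

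Leukocytes leave the blood in steps that these genes carry out. Selectins on activated endothelium catch sialylated and fucosylated glycoproteins on passing leukocytes and let them roll, after which leukocyte integrins bind ICAM and VCAM proteins on the vessel wall and hold the cell in place. In a healthy brain this traffic is sparse, E-selectin is made mainly after inflammatory stimulation of endothelium, and several of the leukocyte-side genes are also expressed by microglia, the resident macrophages. In bulk tissue, fewer cells of a type and less RNA per cell cannot be told apart.

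The hippocampal libraries held 35003483 to 43425895 assigned reads in pacing and 36573169 to 51789497 in sham. Sham replicate 2 stood apart on the first principal component (39.6, against -13.5 to 8.61 for the other libraries). Choroid plexus markers, genes of tissue next to the hippocampus, summed to 455 RPKM there, with 76.2 to 159 in pacing and 5.86 and 45.7 in the other sham libraries. RPKM scales the reads of a gene by the length of its model and by the reads assigned in the library. Markers of the labelled tissue were present, with the granule cell factor PROX1 at 7.22 ± 1.0 RPKM in pacing and 5.71 ± 1.27 RPKM in sham. SLC17A7, a glutamate transporter of excitatory terminals, was at 85.5 ± 12.5 RPKM in pacing and 68.9 ± 17.7 RPKM in sham. Errors are SDs over 3 libraries per arm throughout.

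VCAM1 was highest in both arms and SELP lowest. In pacing the order by mean was VCAM1, ITGA4, SELPLG, CD34, ICAM1, ICAM2, ITGB2, SELE and SELP. The neighbours ITGA4 and SELPLG, ICAM1 and ICAM2, ICAM2 and ITGB2, and SELE and SELP overlapped by library in that order. In sham SELE stood in place 4, between SELPLG and ICAM1, against place 8 in pacing, and it overlapped with ICAM1 there. The sham order went on from ICAM1 to CD34, ICAM2 and ITGB2, each overlapping with the next. All 9 genes varied less among pacing than among sham libraries on the log2(RPKM + 1) scale, as did 78.8% of all genes tested.

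**Figure D1:**
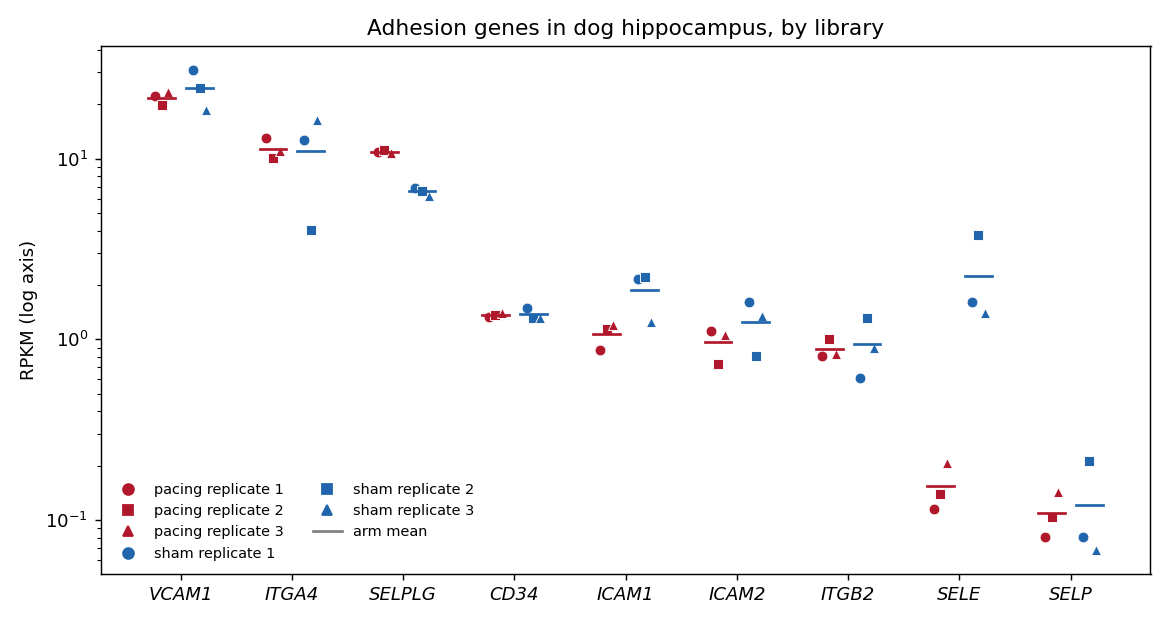
RPKM of each adhesion gene in each hippocampal library on a log axis, pacing left (red) and sham right (blue), with the arm mean as a line. SELE is far lower in the 3 pacing libraries (0.115 to 0.207 RPKM) than in the 3 sham libraries (1.39 to 3.77 RPKM), SELPLG is higher in pacing, ICAM1 is lower without overlap, and the other 6 genes overlap.

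SELE encodes E-selectin, the selectin made by cytokine-activated endothelium. Its model lies on the plus strand of chromosome 7 from 28888503 to 28898787 in CanFam3.1, with 14 exon blocks and 4010 exonic bases. It had 0.115, 0.140 and 0.207 RPKM in pacing replicates 1, 2 and 3, and 1.60, 3.77 and 1.39 RPKM in sham replicates 1, 2 and 3. These rest on 20, 23 and 29 reads in pacing and 321, 782 and 204 reads in sham. Every pacing library lay below every sham library, and sham replicate 2 was the highest. The arm means were 0.154 ± 0.0474 RPKM in pacing and 2.25 ± 1.31 RPKM in sham, and pacing was 14.6-fold lower. Without sham replicate 2 the sham mean was 1.5 RPKM and pacing was 9.73-fold lower. On the log2(RPKM + 1) scale, which understates changes of low genes, the difference was -1.42. The mean over the libraries passed the filter of 0.5 RPKM through the sham arm alone.

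Endothelial markers were set beside SELE. The sum of PECAM1, a junctional adhesion molecule, CDH5, the cadherin of endothelial junctions, and CLDN5, a tight junction protein, was 9.94 to 10.7 RPKM in pacing and 7.47 to 9.63 in sham, so it was higher in pacing without overlap. PECAM1 made up most of the sum, at 7.51 ± 0.351 RPKM in pacing and 5.79 ± 0.580 RPKM in sham, while CDH5 was at 1.61 ± 0.126 RPKM in pacing and 1.82 ± 0.336 RPKM in sham. SELE amounted to 1.07%, 1.33% and 2.08% of that sum in pacing replicates 1 to 3, against 18.4%, 39.1% and 18.6% in sham replicates 1 to 3. The arms were apart on this scale as in RPKM, which is no support for the shift, since SELE was chosen for it. None of the 17 endothelial markers was at 0 reads in all libraries. Together they summed to 50.3 to 53.1 RPKM in pacing and 42.7 to 55.5 RPKM in sham. Of the 15 tested, 0 passed (limma), 8 were higher and 7 lower by log2 difference, and the median was 0.01. Without sham replicate 2, 10 of the 15 were higher and the median was 0.11. PECAM1, MFSD2A, a lipid transporter of the blood-brain barrier, and ABCB1, an efflux pump, were higher in pacing without overlap. ROBO4, an endothelial guidance receptor, and TEK, the angiopoietin receptor, were lower without overlap, as was SOX17, an endothelial transcription factor below the filter. That made 3 higher and 2 lower of the 15 tested, where 4.92% and 11.3% of all genes tested were. ROBO4 was at 0.573 ± 0.0452 RPKM in pacing, against 1.15 ± 0.380 RPKM in sham (limma, adjusted p = 0.455). ABCB1 was at 5.90 ± 0.174 RPKM in pacing, against 4.20 ± 0.998 RPKM in sham (limma, adjusted p = 0.476). TEK was at 1.31 ± 0.0632 RPKM in pacing and 1.63 ± 0.243 RPKM in sham, and SOX17 had 12 reads in pacing and 42 in sham. MFSD2A, TEK and SOX17 were chosen after their values were seen. Sham replicate 2 was the highest library both for SELE and for summed choroid plexus markers, a sum that was mostly TTR (449 RPKM there). The other markers were named after their values were seen. FOLR1 and KCNJ13 were also highest there, CLIC6 and KL in pacing replicate 2, and AQP1 in sham replicate 3. The part of these cell types in the SELE difference was not tested.

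SELP encodes P-selectin, stored in endothelial cells and platelets. Its model, on the same strand of chromosome 7 from 28956428 to 28997266 with 18 exon blocks, begins 57.6 kb beyond SELE. It had 0.0810, 0.104 and 0.144 RPKM in pacing replicates 1 to 3 and 0.0805, 0.213 and 0.0687 in sham replicates 1 to 3. The arms overlapped, and sham replicate 2 was again the highest. With 51 reads in pacing and 70 in sham over the arm, SELP did not reach the filter and was not tested in the main comparison. The difference of its log2(RPKM + 1) means was -0.01. The platelet markers PPBP, GP9, GP1BA and ITGA2B were not tested either. Their highest level in any library was 0.503 RPKM, and they summed to 0.546 to 0.835 RPKM in pacing and 0.558 to 1.01 RPKM in sham.

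The genes around SELE were compared next. Within 100 kb, the neighbours reported here are SCYL3, C7H1orf112, METTL18 and SELP, leaving out a tRNA model with copies along the chromosome. Their log2 differences ran from -0.11 to -0.01, and of the 3 that were tested (limma) 0 passed. C7H1orf112 was the 1 without overlap, lower in pacing, where 11.3% of all genes tested were.

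**Figure D2:**
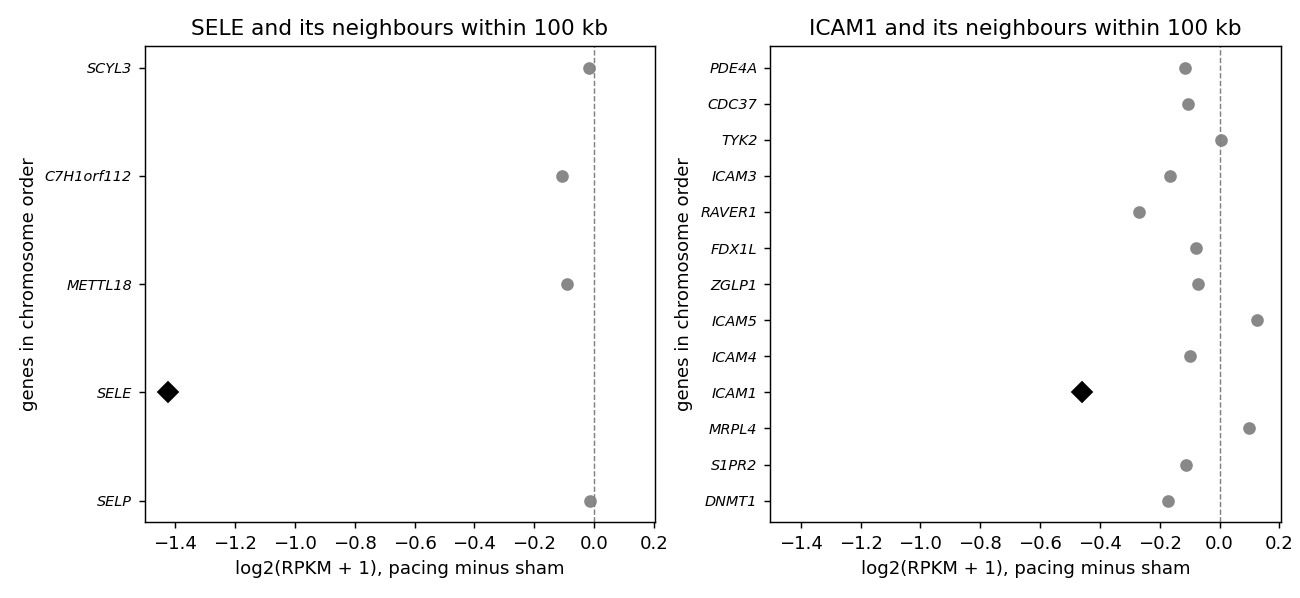
Differences on the log2(RPKM + 1) scale, pacing minus sham, for SELE (left) and ICAM1 (right) as black diamonds and for the neighbours reported here within 100 kb as grey circles, in chromosome order from top to bottom. SELE is at -1.42 while its neighbours lie between -0.11 and -0.01, and ICAM1 is at -0.46 while its neighbours lie between -0.27 and 0.13.

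SELPLG encodes PSGL-1, the sialomucin that P-selectin and, with lower affinity, the other selectins bind. In mouse brain it is counted among the genes of resting microglia. Its model lies on the plus strand of chromosome 26 from 18250260 to 18259996, with 2 exon blocks and 2382 exonic bases. It had 10.9, 11.1 and 10.7 RPKM in pacing replicates 1 to 3 and 6.91, 6.64 and 6.22 in sham replicates 1 to 3. Every pacing library was above every sham library, with SDs of 0.206 RPKM in pacing and 0.347 RPKM in sham. Pacing stood at 1.65 times the sham mean, a log2 difference of 0.65, and at 1.66 times without sham replicate 2.

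Microglial markers were set beside SELPLG. CSF1R, the receptor that microglia need to survive, CX3CR1, the fractalkine receptor, and P2RY12, a purinergic receptor of resting microglia, summed to 16.8 to 19.9 RPKM in pacing and 13.3 to 17.5 in sham. The arms overlapped. SELPLG amounted to 61.4%, 55.8% and 63.7% of that sum in pacing replicates 1 to 3 and 41.5%, 38.0% and 46.7% in sham replicates 1 to 3, with no overlap. As SELPLG was chosen for its shift, this is no support for that shift. Of 12 microglial markers tested, 0 passed, and 6 had a log2 difference above 0, where 41.1% of all genes tested did. Without sham replicate 2, 9 of the 12 were above 0 and the median was 0.16. The share of all genes above 0 without that library is not given here. TMEM119, a membrane protein of resident microglia, stood at 1.61 ± 0.171 RPKM in pacing and at 0.897 ± 0.201 RPKM in sham (limma, adjusted p = 0.36). P2RY12 was at 7.45 ± 0.640 RPKM in pacing, against 5.08 ± 1.65 RPKM in sham (limma, adjusted p = 0.529). Of the 12, 2 (these) were higher and 1 was lower in pacing without overlap, where 4.92% and 11.3% of all genes tested were. Summed over the whole list, microglial markers were at 131 to 153 RPKM in pacing and 119 to 199 RPKM in sham. The microglial list had a median log2 difference of 0.05, against -0.04 for all genes tested. Its part in the SELPLG difference was not tested.

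CD34 encodes a sialomucin of capillary endothelium that also marks blood-forming progenitors. Its model is on the minus strand of chromosome 7 from 6734363 to 6747991, far from the selectins. It had 1.34, 1.36 and 1.40 RPKM in pacing replicates 1 to 3 and 1.5, 1.32 and 1.31 in sham replicates 1 to 3. The arms overlapped, with sham replicate 1 the highest. The log2 difference was -0.0047, with a 95% interval of -0.22 to 0.21 (limma, adjusted p = 0.990).

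ICAM1 is the inducible ligand of the leukocyte beta-2 integrins. Its model lies on the minus strand of chromosome 20 from 50818715 to 50827914, with 7 exon blocks, and no other model shares exonic bases with it or with any of the other 8. It had 0.871, 1.14 and 1.2 RPKM in pacing replicates 1 to 3 and 2.17, 2.22 and 1.25 in sham replicates 1 to 3, on 110 to 136 reads in pacing and 133 to 334 in sham. All pacing libraries were below all sham libraries, though sham replicate 3 lay just above pacing replicate 3. The log2 difference was -0.46 with a 95% interval of -0.84 to -0.08, unadjusted for the number of genes. It did not pass (limma, adjusted p = 0.482), and its unadjusted p of 0.0236 is one of 9.15% of genes tested with an unadjusted p under 0.05. Relative to PECAM1, CDH5 and CLDN5, whose sum was itself higher in pacing, it amounted to 8.12% to 12.1% in pacing and 16.7% to 24.9% in sham, without overlap.

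ICAM1 sits in a run of related genes. ICAM4, a red cell adhesion gene, is 0.164 kb away, ICAM5, the telencephalin gene of forebrain neurons, 2.7 kb, and ICAM3, a leukocyte ICAM, 34.9 kb. ICAM5 was at 20.04 ± 2.39 RPKM in pacing, against 18.9 ± 6.65 RPKM in sham (limma, adjusted p = 0.883). ICAM4 was at 2.48 ± 0.109 RPKM in pacing, against 2.88 ± 1.45 RPKM in sham (limma, adjusted p = 0.913). ICAM3 was at 0.759 ± 0.141 RPKM in pacing, against 0.992 ± 0.377 RPKM in sham (limma, adjusted p = 0.754). The arms overlapped for all 3. Of the 12 named neighbours within 100 kb, 10 were tested and 0 passed. RAVER1 and ZGLP1 were lower in pacing without overlap, ZGLP1 on 1 read in pacing and 10 in sham. Over all genes tested, 11.3% were lower without overlap.

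ICAM2 is the ICAM that endothelium makes without stimulation. It had 1.11, 0.735 and 1.06 RPKM in pacing replicates 1 to 3 and 1.60, 0.810 and 1.34 in sham replicates 1 to 3, on 38 to 61 reads in pacing and 53 to 101 in sham, from a 1264-base model on chromosome 9 from 11903593 to 11908835. The arms overlapped because sham replicate 2 was low. The log2 difference was -0.18, with an interval of -0.55 to 0.19 (limma, adjusted p = 0.729).

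VCAM1 binds the integrin VLA-4 and is made by activated endothelium and, in brain, by other vascular and glial cells as well. Its model is on chromosome 6 from 49341669 to 49359841, with 11 exon blocks on the minus strand. It had 22.1, 19.8 and 23.3 RPKM in pacing replicates 1 to 3 and 30.9, 24.5 and 18.5 in sham replicates 1 to 3. Sham replicate 3 was the lowest library and sham replicate 1 the highest, so the arms overlapped. The log2 difference was -0.15, with an interval of -0.57 to 0.27 (limma, adjusted p = 0.813). VCAM1 alone was 187% to 235% of the summed PECAM1, CDH5 and CLDN5 in pacing and 248% to 355% in sham, without overlap. That sum, mostly PECAM1, was itself higher in pacing, at 9.94 to 10.7 RPKM against 7.47 to 9.63 in sham, while VCAM1 in RPKM overlapped. The summed RPKM of all 17 endothelial markers overlapped between arms. CD34 and ICAM2 overlapped relative to PECAM1, CDH5 and CLDN5.

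**Figure D3:**
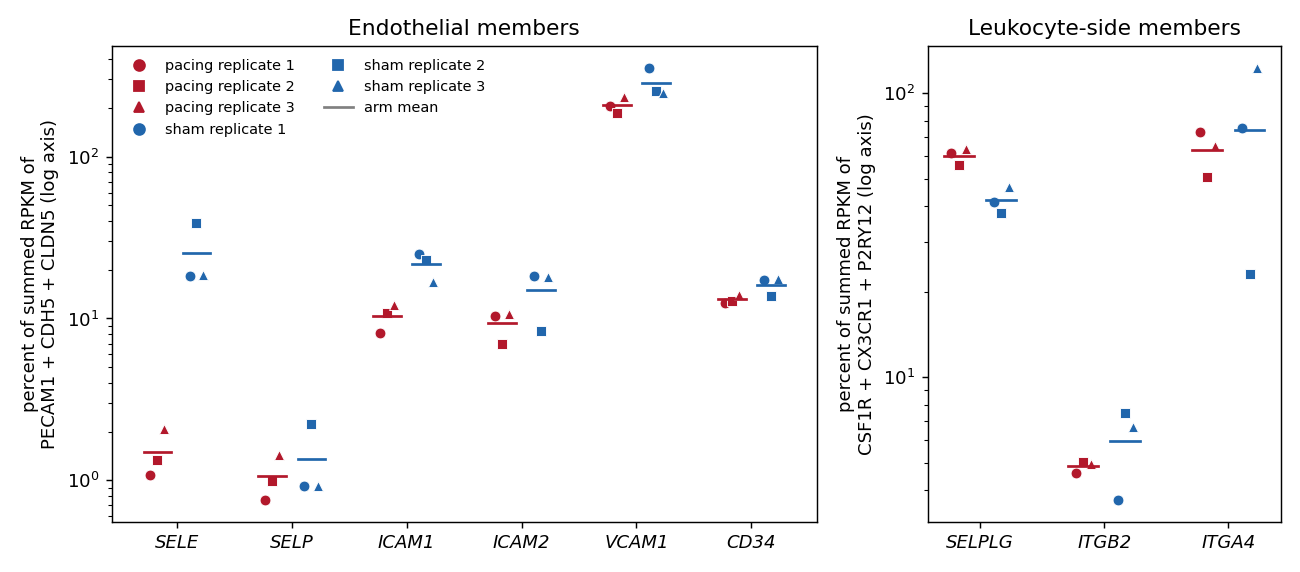
Members in each library as a percent of summed RPKM of cell type markers, on log axes, pacing left (red) and sham right (blue). SELE lies at 1.07% to 2.08% of the endothelial sum in pacing and 18.4% to 39.1% in sham, and SELPLG at 55.8% to 63.7% of the microglial sum in pacing and 38.0% to 46.7% in sham.

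ITGB2, the shared beta-2 chain (CD18) of the integrins that bind ICAM1, had 0.811, 1.0 and 0.832 RPKM in pacing replicates 1 to 3 and 0.615, 1.31 and 0.892 in sham replicates 1 to 3. Both the lowest and the highest value were in sham. Its model is on chromosome 31 from 38520733 to 38547003. The log2 difference was -0.03, with an interval of -0.37 to 0.31 (limma, adjusted p = 0.957), and it turned to 0.10 without sham replicate 2. Relative to microglial markers ITGB2 overlapped between arms, at 4.59% to 5.03% of the microglial sum in pacing and 3.69% to 7.51% in sham.

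ITGA4 encodes the alpha-4 chain of VLA-4, the VCAM1 receptor. The deposited model holds 890 exonic bases in 9 blocks on chromosome 36 from 24670464 to 24686719, too short for a whole integrin alpha chain, so its values describe part of the gene. It had 12.9, 10.1 and 10.9 RPKM in pacing replicates 1 to 3 and 12.6, 4.04 and 16.4 in sham replicates 1 to 3. Sham replicate 2 was the lowest and sham replicate 3 the highest. The log2 difference was 0.21, with an interval of -0.78 to 1.2 (limma, adjusted p = 0.895), and it turned to -0.33 without sham replicate 2.

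Of the 9 genes, 8 entered the test and 1 (SELP) did not. The 6 tested genes that had been chosen by name gave 0 calls, where 0.0249% of the 16090 genes tested were called, 0.0186% higher and 0.00622% lower in pacing. Of these 6, 1 (ICAM1) had an unadjusted limma p under 0.05, and edgeR on recovered reads called 0 of them. Pacing and sham did not overlap for 1 of the 7 genes chosen by name, ICAM1, lower in pacing. Over all genes tested the arms did not overlap for 16.2%, with 4.92% higher and 11.3% lower in pacing, and a count of 1 in 7 is near that background. SELE and SELPLG also did not overlap, and they were chosen for it.

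**Figure D4:**
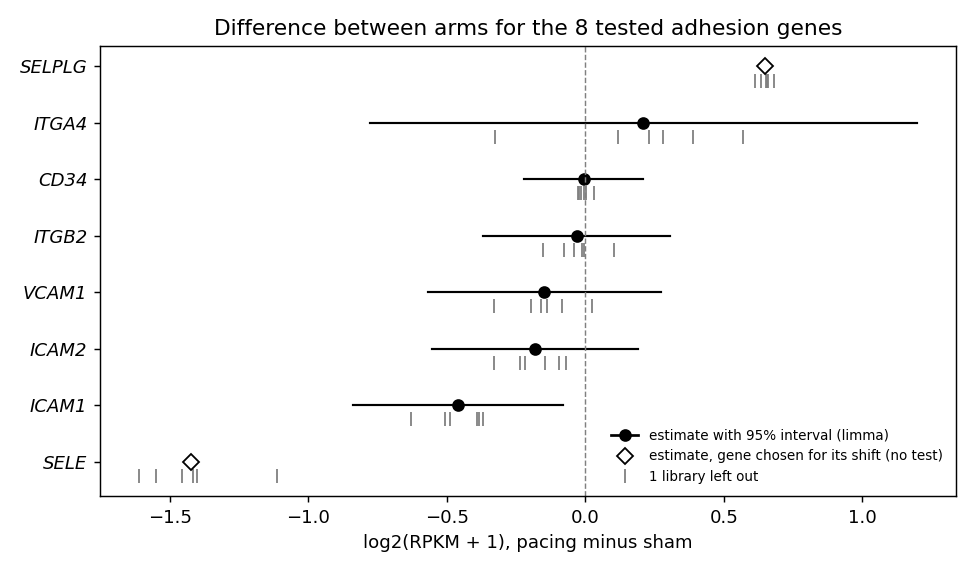
Differences on the log2(RPKM + 1) scale, pacing minus sham, for the 8 tested genes. Black circles with lines are limma estimates with 95% intervals, open diamonds are the 2 genes chosen for their shift, and grey ticks are the same estimates with 1 library left out; only the interval of ICAM1 (-0.84 to -0.08) leaves out 0, and the ticks of ITGA4 run from -0.33 to 0.57.

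Genes that make or carry selectin ligands were measured from a list of 19, of which 18 were found and 13 tested. None of the 13 passed (limma), 4 were higher and 9 lower by log2 difference, and the median was -0.11. EMCN, an endothelial sialomucin, was at 1.75 ± 0.278 RPKM in pacing, against 1.25 ± 0.356 RPKM in sham (limma, adjusted p = 0.591). FUT4, a fucosyltransferase, was at 0.945 ± 0.104 RPKM in pacing, against 0.720 ± 0.185 RPKM in sham (limma, adjusted p = 0.637). ST3GAL6, a sialyltransferase, was at 1.70 ± 0.328 RPKM in pacing, against 2.26 ± 0.436 RPKM in sham (limma, adjusted p = 0.607). These 3 overlapped between arms. Pacing and sham did not overlap for 2 of the 13, ST3GAL3 and ST3GAL4, both lower in pacing and chosen after their values were seen. Over all genes tested the arms did not overlap for 16.2%, with 11.3% lower in pacing. FUT7, the fucosyltransferase of leukocyte selectin ligands, was under the filter, with 31 reads in pacing and 73 in sham, and was also chosen after its values were seen.

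Other immunoglobulin-type and junctional adhesion genes gave 0 of 15 called, 7 higher and 8 lower, with a median log2 difference of -0.03. PECAM1 was at 7.51 ± 0.351 RPKM in pacing, against 5.79 ± 0.580 RPKM in sham (limma, adjusted p = 0.445). F11R, the junctional molecule JAM-A, was at 3.77 ± 0.340 RPKM in pacing, against 4.82 ± 0.483 RPKM in sham (limma, adjusted p = 0.520). These were the 2 of 15 without overlap, 1 in each direction, where 16.2% of all genes tested did not overlap. ESAM, another endothelial junction gene, was at 0.529 ± 0.214 RPKM in pacing, against 0.843 ± 0.204 RPKM in sham (limma, adjusted p = 0.595). Under median-of-ratios scaling 9 of the 15 were higher, and without sham replicate 2, 8 were, with a median of 0.03.

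Partners and activators of the integrins gave 0 of 9 called, 3 higher and 6 lower, with a median of -0.09. Without sham replicate 2 the tally turned to 5 of 9 higher and the median to 0.05. ITGAM, the alpha chain that pairs with ITGB2 in complement receptor 3 of microglia and myeloid cells, was at 2.83 ± 0.173 RPKM in pacing, against 2.29 ± 0.627 RPKM in sham (limma, adjusted p = 0.638). ITGB7, an alternative partner of ITGA4, was at 3.50 ± 0.364 RPKM in pacing, against 2.82 ± 0.439 RPKM in sham (limma, adjusted p = 0.607), and like ITGAV it was higher in pacing without overlap. Of the 9, 2 were thus higher and 0 lower without overlap, where 4.92% and 11.3% of all genes tested were. TLN1, the talin that activates integrins, was at 11.7 ± 0.256 RPKM in pacing, against 14.8 ± 4.13 RPKM in sham (limma, adjusted p = 0.640). ITGAL, which pairs with ITGB2 on lymphocytes, was under the filter, with 167 reads in pacing and 157 in sham, and was chosen in the same way.

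**Figure D5:**
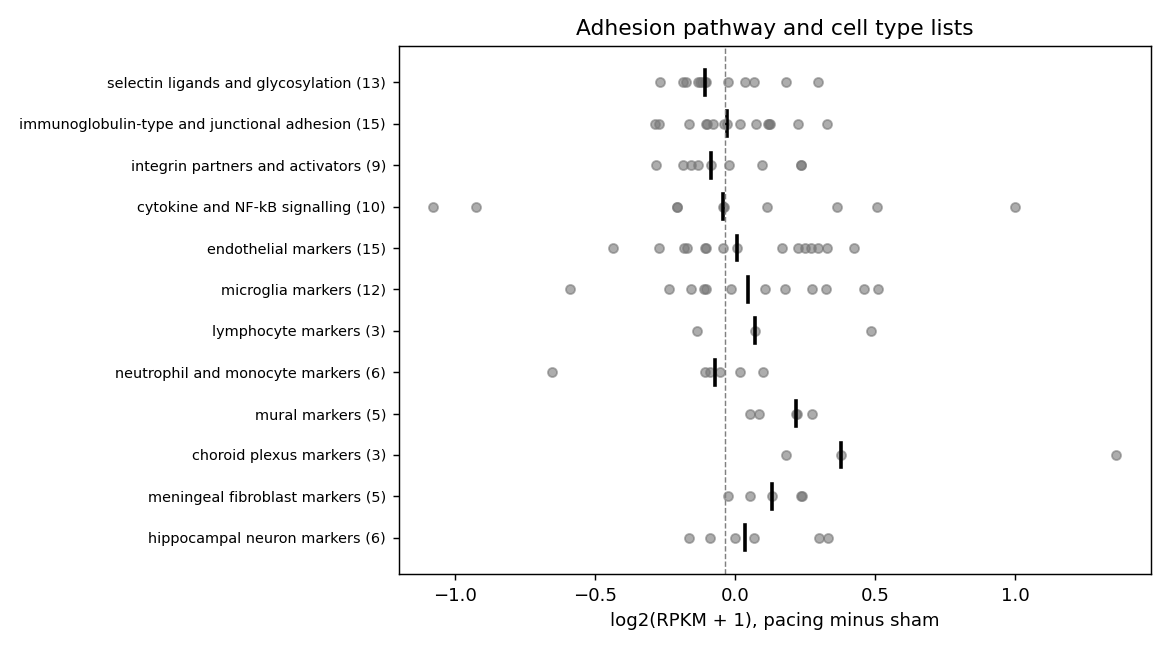
Differences on the log2(RPKM + 1) scale, pacing minus sham, for the tested genes of each list (grey circles, number of genes in parentheses), with the list median as a black bar and the median of all genes tested (-0.04) as a dashed line. Cytokine and NF-kB genes run from BIRC3 at -1.08 to TNFRSF1B at 1.0, and the point farthest to the right is TTR at 1.36 among choroid plexus markers.

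Cytokines such as TNF and interleukin-1 are known to induce SELE, ICAM1 and VCAM1 in endothelium. Of 16 cytokine and NF-kB genes 10 were tested, 0 passed, 4 were higher and 6 lower, and the median was -0.04. Without sham replicate 2, and likewise under median-of-ratios scaling, 6 of the 10 were higher, with medians of 0.15 and 0.02. TNFRSF1B, a tumour necrosis factor receptor, was at 17.8 ± 2.21 RPKM in pacing, against 8.43 ± 1.37 RPKM in sham (limma, adjusted p = 0.151). BIRC3, an NF-kB target, was at 1.69 ± 0.165 RPKM in pacing, against 4.78 ± 1.39 RPKM in sham (limma, adjusted p = 0.210). IL1R1, the interleukin-1 receptor, was at 6.47 ± 0.208 RPKM in pacing, against 4.82 ± 0.603 RPKM in sham (limma, adjusted p = 0.417). All 3 were without overlap, 2 higher and 1 lower of the 10 tested, where 4.92% and 11.3% of all genes tested were. The ligand genes, named here after their values were seen, were under the filter and untested. TNF had 1 read in all pacing and 5 in all sham libraries. IL1B had 0.0181, 0.0289 and 0.0225 RPKM in pacing replicates 1 to 3 and 0.0631, 1.60 and 0.527 in sham replicates 1 to 3, all sham libraries above all pacing ones. Over all genes tested, 11.3% were lower in pacing without overlap. Among the list's other genes under the filter, also named after their values were seen, IL1A and PTGS2 were lower without overlap. TNF, IL6 and CXCL8 overlapped between arms. Sham replicate 2 was the highest library for IL1B, as for SELE, and the pacing libraries were the lowest for both. SELE was chosen for its shift, so this likeness is a description only. The part of IL1B in the SELE difference was not tested.

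Lymphocyte markers summed to 3.77 to 4.06 RPKM in pacing and 2.5 to 3.47 RPKM in sham. Of 12, 3 were tested and 0 passed (limma). CD2, a lymphocyte adhesion molecule, was at 0.967 ± 0.408 RPKM in pacing, against 0.384 ± 0.0249 RPKM in sham (limma, adjusted p = 0.438), without overlap. It was the 1 of 3 tested without overlap, where 4.92% of all genes tested were higher in pacing without overlap. Of the untested T cell genes, chosen after their values were seen, CD3E had 43 reads in pacing and 9 in sham, while CD4 had 15 reads in pacing and 59 in sham. Neutrophil and monocyte markers summed to 36.1 to 39.04 RPKM in pacing and 28.3 to 60.7 in sham, with 0 of 6 called and 2 of 6 higher, or 5 of 6 without sham replicate 2. Their smallest p was that of CD14, a lipopolysaccharide co-receptor, at 1.38 ± 0.122 RPKM in pacing, against 2.89 ± 1.27 RPKM in sham (limma, adjusted p = 0.487). CD14 was the 1 of 6 without overlap, lower in pacing, where 11.3% of all genes tested were. Mural markers gave 0 of 5 called, meningeal fibroblast markers 0 of 5, choroid plexus markers 0 of 3, hippocampal neuron markers 0 of 6 and erythrocyte markers 0 of 1. By log2 difference 5, 4, 3, 4 and 0 of these were higher, where 41.1% of all genes tested were. The mural median was 0.22, and RGS5 and MYH11 were higher without overlap, where 4.92% of all genes tested were. Mural markers summed to 35.4 to 38.4 RPKM in pacing and 29.3 to 33.7 RPKM in sham, without overlap. The part of these cells in the differences of SELE, SELPLG and ICAM1 was not tested.

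Likeness to the 3 genes that separated the arms was measured as Pearson's r of log2(RPKM + 1) over the 6 libraries, which share their arm difference and depth, and is given as a description. With SELE, 130 of 12766 named genes reached an r of 0.95. The 5 most alike were BIRC5, CYP2W1, RFWD3, CCDC191 and TRAFD1. Their pacing means were 0.49 to 0.81 times their sham means, against 0.0683 times for SELE. With SELPLG, 35 genes reached that r, led by CELF4, SFN, TOM1L1, TCHP and ZNF165, which were at 1.22 to 2.35 times the sham mean. With ICAM1, 33 genes did, led by SLC35D1, ZZEF1, SLC24A4, OGT and BATF, at 0.66 to 0.95 times.

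The exosome libraries of epicardial fat were read only for miRNAs known from human or mouse cells to act on endothelial adhesion genes or NF-kB signalling. Of 10 looked for, 9 were listed. miR-126, an endothelial miRNA that represses VCAM1 in human cells, was at 8553, 4405 and 9309 RPM (reads scaled to the library's listed total) in pacing replicates 1 to 3 and 5441, 17083 and 5170 in sham replicates 1 to 3, with overlap. miR-146a, which dampens NF-kB signalling, was at 1069, 708 and 1365 RPM in pacing and 408, 596 and 548 in sham. It was the 1 of 9 without overlap, where 4.05% of the 321 entries did not overlap, and it rests on 9 to 22 reads per library in pacing and 6 to 15 in sham. No link between these exosomes and the hippocampal genes was tested.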

How the data were processed

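The submitters' processing notes list Trimmomatic 0.36, STAR 2.5.3a and featureCounts. The order of these tools, the annotation and the strand setting of the counting are not stated in what was read here, so reads of opposite strands may not be told apart. The deposited hippocampal values are RPKM. Multiplied by the deposited model length, 100% of them were whole reads within 0.01. The authors' exosome values, named TPM, are RPM with no length term, from 12159 to 25171 listed reads per library. Sequence names are those of CanFam3.1. Differences are pacing minus sham on log2(RPKM + 1) for 16090 genes with a mean of at least 0.5 RPKM. They were fitted with limma-trend 3.58.1 (R 4.3.3), two-sided, with Benjamini-Hochberg adjustment across the whole table and a threshold of 0.05. edgeR 4.0.16 on recovered reads was an alternative. The fits were also run on simulated reads with the same spread in every library. In these data 78.8% of genes tested varied less in pacing than in sham, so that run does not vouch for the fits here. The 9 members and all lists, the miRNA list included, were chosen with earlier results of these data known. Named genes are the members, neighbours of SELE and ICAM1 within 100 kb, up to 3 genes of smallest p per list, the 5 genes most alike, and others said to be chosen after their values were seen. Some genes that the rule would name are not reported here.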

Additional observations from a re-analysis of the deposited data

How the results depend on the processing

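The number of genes called was 4. It was 7 with no low-value filter, 7 at a threshold of 0.1 and 23 with library weights. Leaving out 1 library gave 3 to 95 calls (95 without sham replicate 1, 9 without sham replicate 2); edgeR on recovered reads called 5. With the replicate number as a block 7 genes were called. Same-numbered libraries correlated in their deviations at -0.11, 0.06 and -0.01, and differently numbered ones at -0.23 to 0.27. With 3 libraries per arm these values cannot settle whether the numbers pair the samples. SELE ranged from -3.82 to -1.11 and SELPLG from 0.61 to 0.78 over the 15 alternatives. Both were chosen for their shifts in these libraries, so their kept directions are no support for those shifts. ICAM1 (-0.77 to -0.33) and ICAM2 (-0.33 to -0.07) stayed lower under all 15. With arms that did not overlap, leaving out 1 library could not turn SELE, SELPLG or ICAM1. The low end of SELE is edgeR's, with -3.09 at a pseudocount of 0.1. Of the members chosen by name none passed under any alternative (lowest adjusted p = 0.30, limma, for ICAM1). Directions near 0 turned, and the cause was not tested. CD34 was at 0.0317, 0.0506, 0.0049 and 0.0393 under median-of-ratios scaling, quantile scaling, library weights and edgeR, and at -0.0257 to 0.0326 with 1 library left out. ITGB2 was at 0.00275, 0.0291 and 0.0012 under the first 3 of these and -0.15 to 0.10 with 1 library left out; it has no value at a mean RPKM of at least 1. ITGA4 was at -0.14 with library weights and -0.33 to 0.57 with 1 library left out, and VCAM1 at -0.33 to 0.0261. SELP ranged from -0.05 to 0.05 over 9 alternatives and could not be given where the filter removed it. Of 168 alternative list medians 151 moved by less than the spread between libraries. Without sham replicate 2 the medians of the immunoglobulin-type, integrin partner, cytokine, and neutrophil and monocyte lists turned from below to above 0 (0.03, 0.05, 0.15 and 0.08), and that of the hippocampal neuron list turned to -0.07. Depth limits SELE in pacing, SELP and most cytokines, at under 30 reads per library for SELE.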
